A study of Mus musculus with 4 samples.

Results

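The genes described here are targets of the antioxidant transcription factor NRF2, the sensor pair NRF2 and KEAP1 themselves, and the metallothioneins Mt1 and Mt2. They were chosen by name: every probe that measures a gene, is no control spot and carries one of 10 gene names in the scanner files was taken. This gave 11 probes, 2 for Hmox1 and 1 for each of the other 9 genes, out of 39429 mouse probes on the array. The treated cells came from the spleen of female C57BL/6 mice aged 8 weeks and were cultured for 72 h with 10 µM imatinib, an inhibitor of the ABL, KIT and PDGFR kinases (2 arrays). The control cells were spleen cells of the same strain, sex and age, cultured for 72 h without imatinib (2 arrays). The culture medium of both groups held IL-4 and LPS, a pair of stimuli that drives B cells to divide and switch antibody class. Whole spleen cells are a mixture of cell types. Nothing in the labels ties the replicates to separate mice or dishes, so p-values measure only the spread between these arrays, which may be technical.

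NRF2, the product of Nfe2l2, is a transcription factor that pairs with small Maf proteins on antioxidant response elements in DNA. KEAP1 holds it in the cytosol and hands it to a CUL3 ubiquitin ligase for degradation, until oxidants or electrophiles modify cysteines of KEAP1 and NRF2 accumulates. Its targets make glutathione, reduce thioredoxin and break down heme. BACH1 is a heme-binding repressor that occupies the same elements. Metallothioneins are small cysteine-rich proteins that bind zinc and copper, and their genes are switched on by the zinc-sensing factor MTF1 and by glucocorticoids and cytokines.

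The set split into strong, weak and unmoved genes. Mt1, Hmox1, Srxn1 and Mt2 each rose more than 2-fold with imatinib, and Nfe2l2, Txnrd1 and Gclc rose by less than 2-fold. Gclm and Keap1 did not pass the test, and no member fell. Slc7a11 was detected only on the imatinib arrays and can be given only as a bound. In counts, 9 of the 10 genes were well above background on all 4 arrays, and 7 of these 9 rose (limma, Benjamini-Hochberg adjusted p under 0.05 over all tested probes). Among all 19334 genes measured on all 4 arrays 18.4% rose and 22.4% fell, and 5.08% rose at least 2-fold, as 4 of these 9 did. The median log2 difference was 0.62 over the 9 genes, against 0.0011 over the 19334. The members were chosen with earlier results of these data known, so these values describe the set and do not test it. Slc7a11 entered the test only through the imatinib arrays and is in none of these counts. Under spike-in scaling Txnrd1 and Gclc no longer passed, and Keap1 fell. Fewer members also passed when any 1 of the 4 arrays was left out. The array scaling matters for the small differences: the spike-in controls moved the median of all probes by -0.28. On the plot of signals by array, the groups of the 4 strong genes stand well apart, and those of Gclm and Keap1 lie close together.

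**Figure D1:**
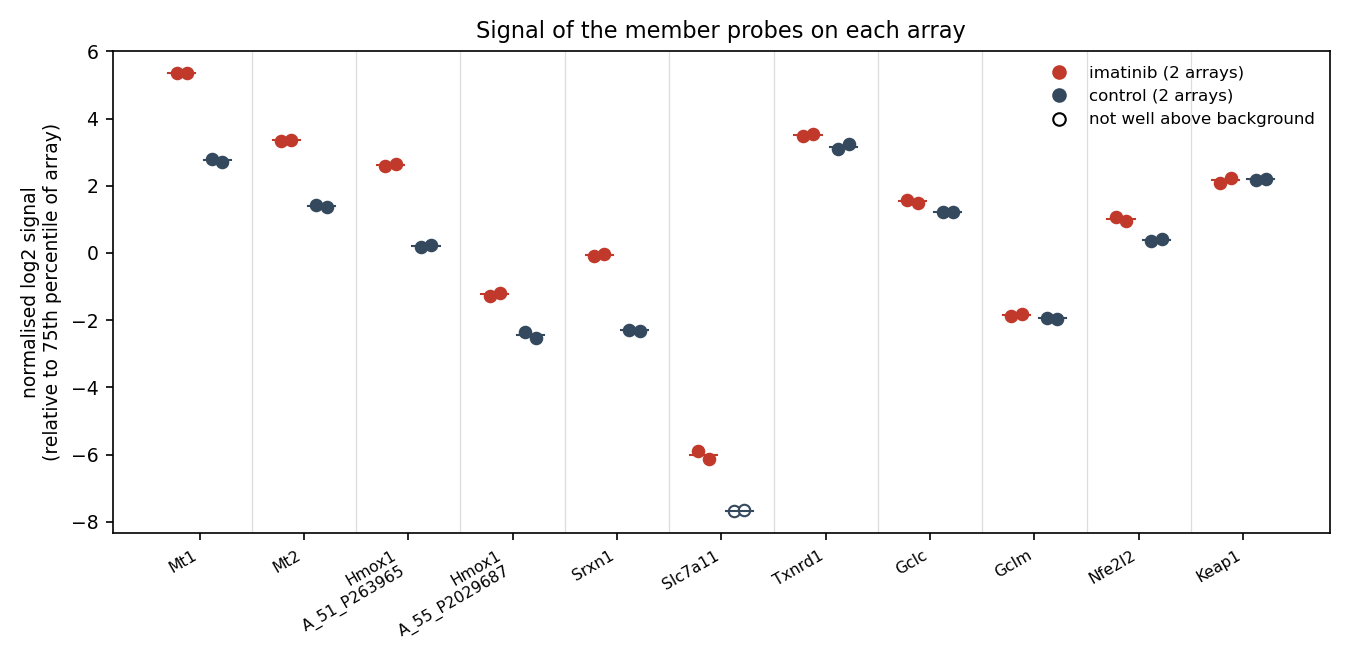
Log2 signal of the 11 probes, with the 75th percentile of each array set to 0, on each of 2 imatinib arrays (red, left) and 2 control arrays (dark, right), with the mean of each group as a line. Mt1, Mt2, both Hmox1 probes and Srxn1 show a gap of over 1 log2 unit between the groups, and the open Slc7a11 points were not well above background.

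Mt1 showed the largest difference of the set. Its log2 signal, scaled so that the 75th percentile of each array is 0, was 5.34 and 5.37 on the imatinib arrays, against 2.81 and 2.72 on the control arrays. The raw processed signal was 28402 and 27950 with imatinib, and 5174 and 5633 in control. The groups did not overlap, and the gap was many times the spread within either group. The log2 difference was 2.59 (SE 0.064, adjusted p = 0.00071), a 6.02-fold rise, which placed the Mt1 probe at rank 234 of 25375 tested probes. Over the alternative settings its difference ran from 2.31 to 2.67, and it passed in all 13.

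Mt2, the second of the ubiquitous metallothioneins and the neighbour of Mt1 on chromosome 8, rose as well. Its log2 signal was 3.34 and 3.36 with imatinib, against 1.43 and 1.37 in control. The 2 arrays of each group lay close together and far from the other group. The difference was 1.95 (SE 0.060, adjusted p = 0.00074), or 3.87-fold. Mt1 changed more than Mt2: relative to the control mean, the log2 ratio of the Mt1 to the Mt2 probe was 0.64 and 0.64 on the imatinib arrays, against 0.02 and -0.02 on the control arrays. This ratio is taken within each array and does not depend on the scaling, and 2 against 2 arrays cannot reach an exact permutation p below 0.333. The transcripts of the metallothioneins are similar to each other, and cross-hybridisation between them was not analysed here.

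The promoters of Mt1 and Mt2 are shown because both genes rose and because metal response elements in them are the known sites of MTF1. The RefSeq promoter table (GRCm38.p6) gives 300 bases per gene, of which the 250 before the start are printed, chr8:94178839-94179088 for Mt1 and chr8:94172368-94172617 for Mt2, both on the + strand. Capitals mark matches, on either strand, to the metal response element cores TGCACNC and TGCGCNC and, in Mt2, to the antioxidant response element core TGACNNNGC.
Mt1: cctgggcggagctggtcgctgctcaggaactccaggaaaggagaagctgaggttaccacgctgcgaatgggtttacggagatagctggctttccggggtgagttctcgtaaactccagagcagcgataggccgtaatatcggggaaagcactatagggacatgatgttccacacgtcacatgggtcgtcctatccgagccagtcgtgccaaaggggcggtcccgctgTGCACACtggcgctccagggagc
Mt2: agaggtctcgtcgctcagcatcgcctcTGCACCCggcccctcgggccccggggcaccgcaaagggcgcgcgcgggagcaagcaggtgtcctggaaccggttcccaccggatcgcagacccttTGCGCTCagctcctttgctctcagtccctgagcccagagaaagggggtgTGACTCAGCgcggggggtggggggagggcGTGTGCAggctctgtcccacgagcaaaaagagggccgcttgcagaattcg
The Mt2 window held 4 metal response element matches, with 3 of them in the printed stretch, a number that 0.517% of 32851 promoter windows reached. The Mt1 window held 3, with 1 of them printed, a number that 1.97% reached. The other Mt1 matches start at 3 and 21, past the annotated start. The windows end 50 bases past that start, and bases beyond were not searched. At least 1 such match was found in 25.7% of all windows. The antioxidant response element match of Mt2 started at -79 and read TGACTCAGC. A match is a run of letters, not a measured binding site.

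Counts of gene lists below are over genes above background on all 4 arrays. Those without a named alternative setting are to be read against the 18.4% that rose and the 22.4% that fell among the 19334 such genes. Spike-in scaling moved the whole array: 2802 tested probes were higher and 11739 lower, against 4905 and 5717 without it. List counts under spike-in scaling are to be read against that shift. Counts without single arrays have no matching share of all genes here, so they are not comparable with the 18.4% and 22.4%. Of 24 genes of other metallothioneins, MTF1 and zinc transport, 6 rose and 5 fell, near those shares, with a median log2 difference of -0.06. Mtf1, the factor that drives Mt1 and Mt2 in response to zinc, was measured by 2 tested probes. The brighter had log2 signals of -0.81 and -0.87 with imatinib and -0.75 and -0.74 in control. Its difference of -0.09 did not pass (SE 0.060, adjusted p = 0.28). The other probe differed by -0.25. Under spike-in scaling the brighter probe differed by -0.38 (adjusted p = 0.020). Slc30a1, the zinc exporter ZnT1 and itself an MTF1 target, rose by 0.57 (SE 0.077, adjusted p = 0.0099). Its signals were -2.19 and -2.06 with imatinib, against -2.74 and -2.66 in control. The zinc importer gene Slc39a8 rose by 1.11 and the vesicular zinc transporter gene Slc30a4 by 0.70, whereas the importer gene Slc39a10 fell by 1.28. The call for Slc30a1 ended without imatinib 2 (adjusted p = 0.060). Leaving out single arrays left 2 to 5 genes of the list higher and 1 to 5 lower, and spike-in scaling gave 3 higher and 12 lower.

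Hmox1 encodes heme oxygenase 1, which opens the heme ring and releases iron, carbon monoxide and biliverdin. It rose on both of its probes, but by unequal amounts. On the brighter probe, A_51_P263965, the log2 signal was 2.58 and 2.63 with imatinib, against 0.19 and 0.25 in control. The processed signal there was 4180 and 4209 with imatinib, and 841 and 1016 in control. That is a difference of 2.39 (SE 0.063, adjusted p = 0.00071), or 5.24-fold. On the dimmer probe, A_55_P2029687, the log2 signal was -1.29 and -1.18 with imatinib, against -2.35 and -2.53 in control. Its difference was 1.20 (SE 0.091, adjusted p = 0.0031), or 2.30-fold. The change on the brighter probe exceeded that on the dimmer one by 1.21 and 1.16 log2 units on the 2 imatinib arrays, with -0.12 and 0.12 on the control arrays. The direction is shared and the size is not settled.

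The sequence of the dimmer Hmox1 probe is shown because the probes disagree in size. It has 1 reading frame without a stop codon over its 60 bases, whereas the brighter probe has none, so the brighter probe is not coding throughout. Both have a GC content of 55%, and neither holds a repeated unit of 12 bases or more.
A_55_P2029687: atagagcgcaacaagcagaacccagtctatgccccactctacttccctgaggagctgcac
The longest repeat of a 2-base or 3-base unit in any of the 11 member probes was 6 bases. This was examined because 109 tested probes with a TG run of at least 12 bases had a median difference of 1.90, with 105 higher and none lower.

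Of 21 genes of heme and iron handling above background on all 4 arrays, 10 rose and 3 fell, against 18.4% and 22.4% of all such genes, with a median log2 difference of 0.26, against 0.0011. The phagosomal metal transporter gene Slc11a1 rose by 2.62 (SE 0.10), Lcn2, an iron-sequestering lipocalin, by 1.88 (SE 0.075), Spic, a transcription factor of red pulp macrophages, by 1.82 (SE 0.17), and the heme-binding protein gene Hebp1 by 1.45 (SE 0.093), with adjusted p up to 0.0048. The normexp background correction shrinks differences of dim probes. With it, Slc11a1, Lcn2, Spic and Hebp1 differed by 1.65, 1.49, 0.95 and 0.73. Slc40a1, the iron exporter ferroportin, was above background only on the imatinib arrays and is not in the counts of this list. The constitutive heme oxygenase gene Hmox2 fell by 0.55 (SE 0.058, adjusted p = 0.0063), opposite to Hmox1. The log2 ratio of Hmox1 to Hmox2, relative to control, to which both changes contribute, was 2.92 and 2.95 on the imatinib arrays, against -0.05 and 0.05 on the control arrays. Spike-in scaling gave 7 higher and 7 lower with a median of -0.02, and leaving out single arrays left 6 to 9 genes higher and 0 to 1 lower.

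Srxn1 encodes sulfiredoxin, which repairs overoxidised peroxiredoxins. Its log2 signal was -0.10 and -0.04 with imatinib, against -2.29 and -2.33 in control. The arrays within a group differed by less than 0.1 while the groups were far apart. The difference was 2.23 (SE 0.062, adjusted p = 0.00071), or 4.70-fold, and it ran from 1.86 to 2.26 over the alternative settings. Txnrd1, the cytosolic thioredoxin reductase, was already bright in control and changed little. It had 3.49 and 3.55 with imatinib, against 3.09 and 3.24 in control, so the groups did not overlap but lay near each other. The difference of 0.36 passed (SE 0.080, adjusted p = 0.030), a 1.28-fold rise. The call for Txnrd1 ended without imatinib 1 (adjusted p = 0.11), without imatinib 2 (0.15) and without control 1 (0.070), and the difference was 0.08 under spike-in scaling. Srxn1 changed more than Txnrd1 by 1.87 and 1.87 log2 units on the imatinib arrays, with 0.09 and -0.09 on the control arrays.

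The promoter of Srxn1 is shown because it was among the strongest of the set. The 250 bases before its start lie at chr2:152105274-152105523 on the + strand (GRCm38.p6). Capitals mark matches to the element of CNC and small Maf proteins, TGACTCAGC or TGAGTCAGC, and to the metal response element cores.
Srxn1: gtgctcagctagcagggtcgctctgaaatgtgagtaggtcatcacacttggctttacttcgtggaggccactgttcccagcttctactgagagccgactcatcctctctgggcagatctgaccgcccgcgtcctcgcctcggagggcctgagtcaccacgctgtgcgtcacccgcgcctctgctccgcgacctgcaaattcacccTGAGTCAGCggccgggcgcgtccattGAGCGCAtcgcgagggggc
The element TGAGTCAGC started at -45. It was added to the search after the sequence had been seen, it overlaps the antioxidant core where it reads TGACTCAGC, and 0.822% of the 32851 windows held either form. Srxn1 and Mt2 were the 2 of 8 members with a promoter entry that held one. Hmox1 and Gclc had no entry and were not searched. The antioxidant core itself, present in 12.4% of all windows, was found in Mt2, Nfe2l2, Gclm, 1 of 3 Txnrd1 windows and, past the start, in Srxn1. Gclm, which did not pass the test, thus held a match as well, as the map of motif matches shows.

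**Figure D2:**
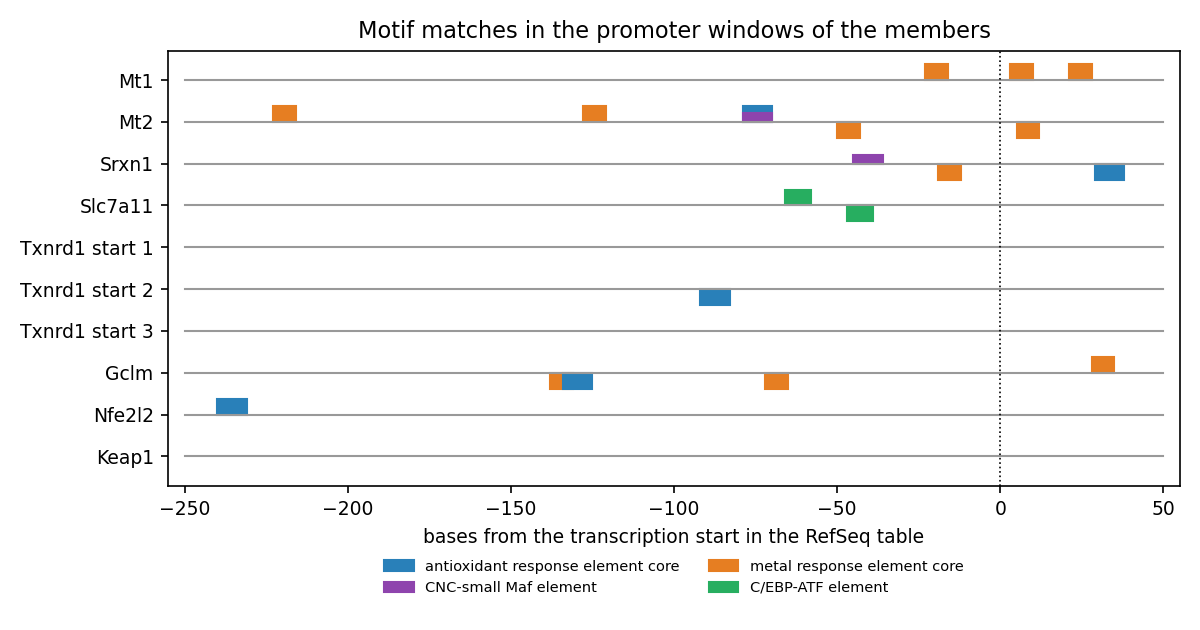
Matches to 4 motifs in the RefSeq promoter windows of 8 member genes, with the distance from the annotated start in bases on the x axis and 1 line per window. Boxes above a line are on the strand of the gene and boxes below on the other strand; Mt2 holds 4 metal response element matches, Slc7a11 holds 2 C/EBP-ATF matches, and Keap1 holds none.

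Beyond Srxn1 and Txnrd1, of 20 genes of thioredoxin, peroxiredoxin and superoxide enzymes above background on all 4 arrays, 3 rose and 4 fell, against 18.4% and 22.4% of all such genes. Their median log2 difference was -0.01. The selenoprotein gene Selenow (Sepw1 in the files) rose by 1.32 (SE 0.095). Txnip, an inhibitor of thioredoxin, fell by 0.93 (SE 0.065), with log2 signals of -0.36 and -0.40 with imatinib and 0.51 and 0.59 in control. The mitochondrial peroxiredoxin gene Prdx3 fell by 0.59 and Prdx6 by 0.39, and the largest adjusted p of these 4 genes was 0.012. Prdx6 no longer passed once either imatinib array was left out (adjusted p = 0.075 without the first, 0.090 without the second). Leaving out single arrays left 1 to 2 genes higher and 2 to 4 lower, and spike-in scaling gave 1 higher and 10 lower.

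Glutamate-cysteine ligase makes the first bond of glutathione and consists of a catalytic subunit, Gclc, and a modifier subunit, Gclm. Gclc had log2 signals of 1.57 and 1.50 with imatinib, against 1.21 and 1.21 in control. The difference was 0.32 (SE 0.062, adjusted p = 0.021), a 1.25-fold rise. Gclm had -1.87 and -1.82 with imatinib, against -1.94 and -1.95 in control. Its groups were close but did not overlap, and its difference of 0.10 did not pass (SE 0.058, adjusted p = 0.24). The call for Gclc ended without any 1 of the 4 arrays (adjusted p 0.060 to 0.13), and under spike-in scaling Gclc differed by 0.04 and Gclm by -0.18 (adjusted p = 0.73 and 0.13). The catalytic subunit changed by 0.28 and 0.17 log2 units more than the modifier subunit on the imatinib arrays, with -0.0046 and 0.0046 on the control arrays.

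Slc7a11 encodes xCT, the transporter that brings in cystine for glutathione synthesis. Its probe was dim. The processed signal was 11.7 and 9.68 with imatinib, against 3.57 and 4.25 in control, where it was not well above background on either array. Against the lowest signal called well above background on the control arrays, Slc7a11 was at least 1.30-fold higher with imatinib. The fitted log2 difference was 1.66 (SE 0.099, adjusted p = 0.0019) between measured means of -6.02 with imatinib and -7.67 in control. It was 0.34 with the normexp background correction, which shrinks differences of dim probes. The gene entered the test only through the group in which it was high, so its call adds nothing to the counts above. Slc3a2, the heavy chain that pairs with xCT, was bright and rose by 0.43 (SE 0.056, adjusted p = 0.0091), with 4.82 and 4.83 with imatinib and 4.39 and 4.40 in control. Slc3a2 no longer passed with the first (adjusted p = 0.068) or the second imatinib array (0.070) left out, nor under spike-in scaling (0.21).

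The Slc7a11 promoter is shown because the gene is a known target of ATF4 as well as of NRF2. Its 250 bases lie at chr3:50443614-50443863 on the - strand (GRCm38.p6), and capitals mark matches to TGATGNAA, a core of C/EBP-ATF response elements.
Slc7a11: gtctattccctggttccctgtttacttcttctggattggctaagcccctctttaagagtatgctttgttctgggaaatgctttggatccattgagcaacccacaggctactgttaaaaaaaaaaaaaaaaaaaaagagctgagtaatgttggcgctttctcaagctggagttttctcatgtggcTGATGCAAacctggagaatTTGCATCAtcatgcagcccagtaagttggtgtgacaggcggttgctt
The window held 2 matches facing each other, at -66 and -47, a number that 0.0700% of all windows reached. No antioxidant core was among these letters.

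Of 18 further genes of the glutathione and cystine cycle, 5 rose and 5 fell, against 18.4% and 22.4% of all genes above background on all 4 arrays, with a median log2 difference of -0.10. Cbs, which condenses homocysteine and serine on the way to cysteine, fell by 1.33 (SE 0.088, adjusted p = 0.0024), with -2.75 and -2.55 with imatinib against -1.33 and -1.31 in control. Oplah, the oxoprolinase of the glutathione cycle, rose by 0.67 (SE 0.059) and the iron-sulfur glutaredoxin gene Glrx5 fell by 0.50 (SE 0.058). Oplah was dim and differed by 0.27 with the normexp background correction. The neutral amino acid transporter gene Slc1a4 differed by 2.10, but its only tested probe holds a GT run of 12 bases and is uncertain in view of the 109 such probes above. Glrx5 no longer passed once either imatinib array was left out (adjusted p = 0.057 without the first, 0.053 without the second). Leaving out single arrays left 2 to 4 genes higher and 1 to 3 lower, and spike-in scaling gave 2 higher and 10 lower.

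Of the sensor pair, Nfe2l2 rose and Keap1 did not pass. Nfe2l2 had log2 signals of 1.08 and 0.95 with imatinib, against 0.35 and 0.43 in control. The difference was 0.62 (SE 0.077, adjusted p = 0.0084), a 1.54-fold rise, and it was 0.34 under spike-in scaling (adjusted p = 0.048). Keap1 had 2.08 and 2.24 with imatinib, against 2.19 and 2.20 in control. These groups overlapped, and the difference was -0.04 (SE 0.080, adjusted p = 0.75). The ratio of Nfe2l2 to Keap1, relative to control, was 0.80 and 0.51 log2 units higher on the imatinib arrays, with -0.03 and 0.03 on the control arrays. The call for Nfe2l2 ended without imatinib 1 (adjusted p = 0.051). The sign of Keap1 turned to 0.04 under quantile normalization and to 0.05 without imatinib 1, and spike-in scaling gave -0.32 (adjusted p = 0.029).

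**Figure D3:**
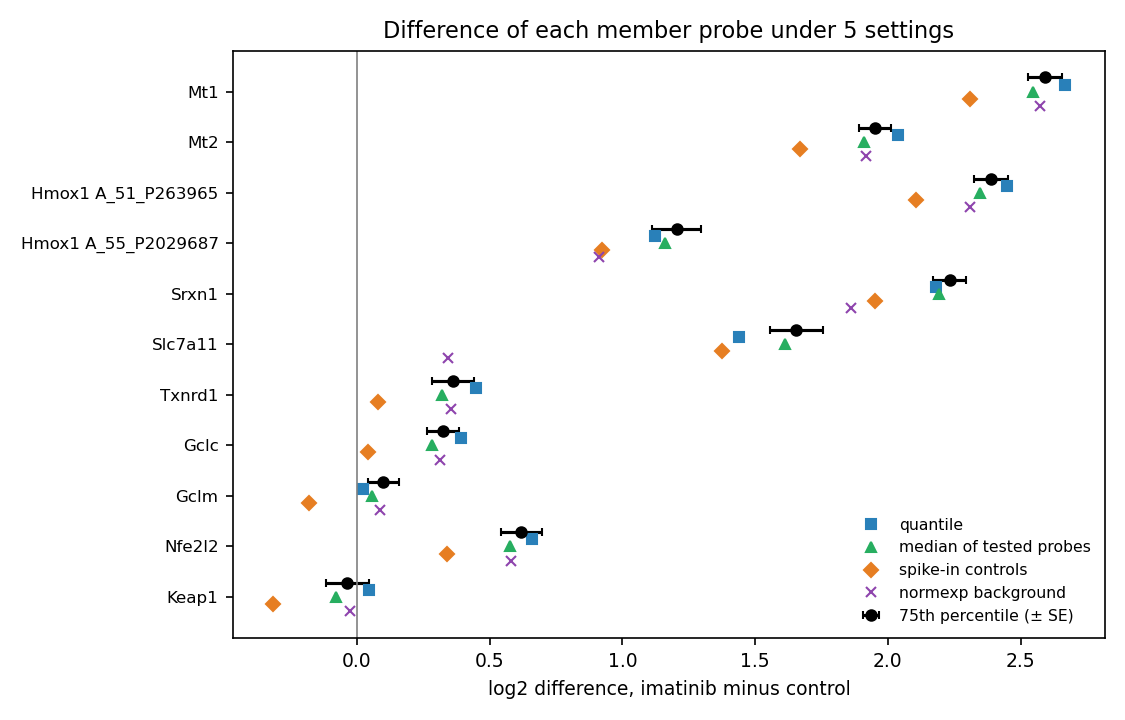
Log2 difference of each member probe, imatinib minus control, under 5 settings of scaling and background correction, with the SE of the limma fit for the setting used in the text. Mt1, Mt2, Hmox1 and Srxn1 stay above 0.9 under every setting drawn, the spike-in scaling brings Txnrd1 and Gclc close to 0 and turns Gclm negative, and normexp brings Slc7a11 to 0.34.

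Of 14 regulators and partners of NRF2 above background on all 4 arrays, 6 rose and 3 fell, against 18.4% and 22.4% of all such genes, with a median log2 difference of 0.15. Maff, a small Maf protein, rose by 1.75 (SE 0.071), with -2.10 and -2.16 with imatinib against -3.83 and -3.93 in control. Bach1, the repressor of Hmox1, rose by 0.96 (SE 0.070), with -0.50 and -0.58 with imatinib against -1.46 and -1.54 in control. The B cell repressor gene Bach2 rose by 0.62 and the small Maf gene Mafg by 0.50, and the largest adjusted p of these 4 was 0.010. Over all their tested probes the differences went down to 0.34 for Bach2 (2 probes) and 0.24 for Mafg (3 probes). The 3 that fell, named here after their values were seen, were the ligase scaffold Cul3 (-0.46), Dpp3 (-0.45) and Pgam5 (-0.31). Hmox1 on its brighter probe changed by 1.35 and 1.50 log2 units more than Bach1 on the imatinib arrays, with -0.07 and 0.07 on the control arrays. Mafg no longer passed with the first (adjusted p = 0.068) or the second imatinib array (0.062) left out, nor under spike-in scaling (0.093). Leaving out single arrays left 3 to 6 genes of the list higher and 0 to 3 lower, and spike-in scaling gave 3 higher and 6 lower with a median of -0.14.

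Of 27 other genes known as NRF2 targets and above background on all 4 arrays, 12 rose and 3 fell, against 18.4% and 22.4% of all such genes, with a median log2 difference of 0.22. Nqo1, the quinone reductase most often used as an NRF2 readout, rose by 2.20 (SE 0.079, adjusted p = 0.00081). Its log2 signals were -0.71 and -0.86 with imatinib, against -3.02 and -2.96 in control. The microsomal epoxide hydrolase gene Ephx1 rose by 2.48 (SE 0.068) on its brighter probe and differed by 1.06 on the other. Ugt1a6a, a glucuronosyltransferase with close relatives in the same locus, rose by 1.21, and the export pump gene Abcc3 by 1.19, with adjusted p up to 0.0052. Abcc3 was dim and differed by 0.35 with the normexp background correction. Nqo1 and Ugt1a6a are also known targets of the aryl hydrocarbon receptor. The 3 that fell, named here after their values were seen, were Gstp1 (-0.44), Akr1b10 (-0.43) and Abcc1 (-0.40). Leaving out single arrays left 8 to 10 genes higher and 0 to 3 lower, and spike-in scaling gave 9 higher and 6 lower with a median of -0.06.

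NADPH, which feeds both glutathione and thioredoxin reductase, is made by enzymes that NRF2 is also known to induce. Of 12 genes of NADPH supply, 2 rose and 4 fell, against 18.4% and 22.4% of all genes above background on all 4 arrays, with a median log2 difference of -0.14. Idh1, the cytosolic isocitrate dehydrogenase, fell by 1.05 (SE 0.086), and Pgd, of the pentose phosphate pathway, fell by 0.79 (SE 0.058), with adjusted p up to 0.0037. Idh1 differed by -0.45 with the normexp background correction. Tkt fell by 0.35 and G6pdx by 0.33, but without single arrays their adjusted p ran from 0.041 to 0.18. The 2 that rose, named after their values were seen, were the malic enzyme gene Me1 (0.33) and the mitochondrial transhydrogenase gene Nnt (0.30). Without single arrays none of the 12 rose and 2 to 3 fell, and spike-in scaling gave 0 higher and 8 lower with a median of -0.42. The strip plot of gene lists sets these differences beside those of the members.

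**Figure D4:**
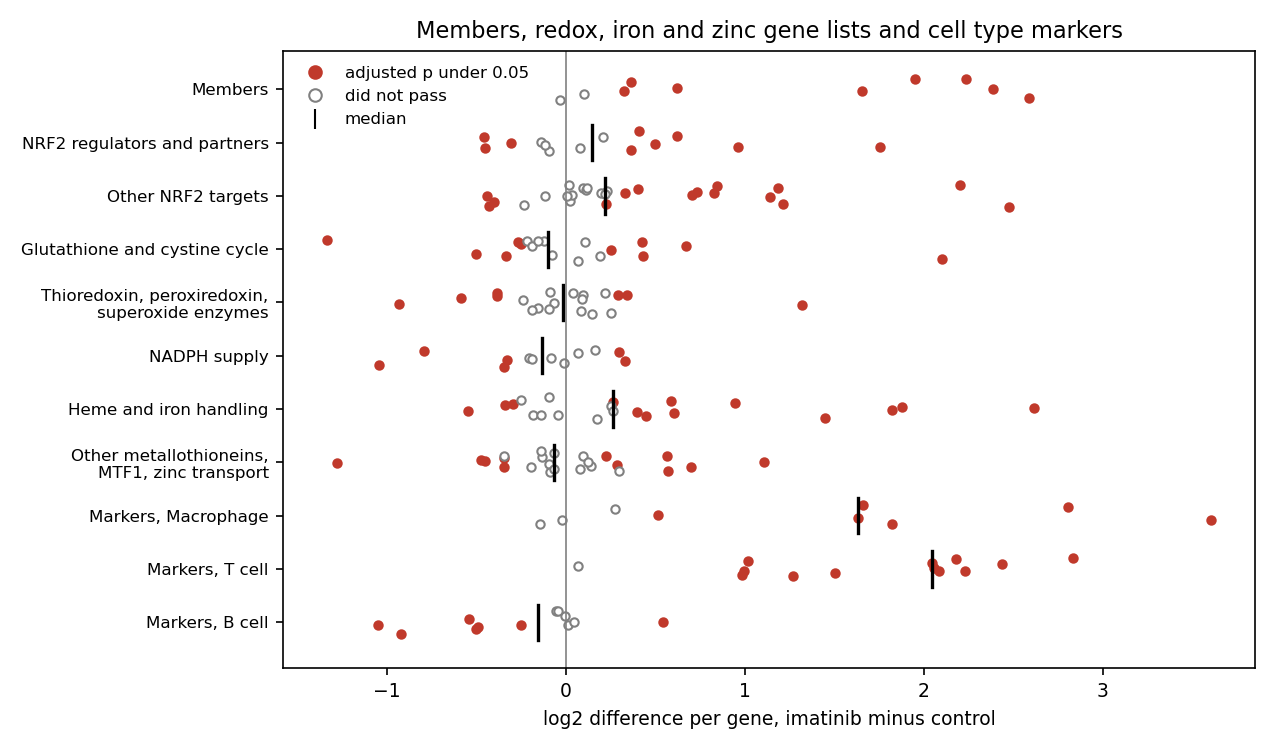
Log2 difference per gene, imatinib minus control, for the 10 members, 7 lists of redox, iron and zinc genes and 3 lists of cell type markers, with filled points for adjusted p under 0.05 and a bar at the median of each list except the members. List genes are those above background on all 4 arrays. The medians of the redox, iron and zinc lists lie between -0.14 and 0.26, whereas those of T cell and macrophage markers are 2.05 and 1.63. With the normexp background correction, not drawn here, the T cell and macrophage medians are 1.53 and 0.72.

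Markers of other spleen cells differed between the same arrays. Of 13 measured T cell markers, 12 rose and none fell, with a median log2 difference of 2.05. Their median was 1.53 with the normexp background correction. Their summed signal, in units of the 75th percentile of the array, was 35.3 to 35.4 with imatinib, against 12.6 to 13.9 in control. Of 9 macrophage markers above background on all 4 arrays, 6 rose and none fell, with a median of 1.63. With the normexp background correction that median was 0.72, and spike-in scaling gave 5 higher and 1 lower. The 11 tested macrophage markers had a summed signal of 5.77 to 6.10 with imatinib, against 3.51 to 3.60 in control. Spic is on both the macrophage list and that of heme and iron handling. Adgre1 (F4/80) rose by 3.60 and Lyz2 by 2.81, whereas Csf1r, Mpeg1 and C1qb did not pass, with differences of 0.28, -0.15 and -0.02. The other 6 macrophage markers, Fcgr1, Mertk, C1qa, C1qc, Cd163 and Vcam1, were not above background on any array. Of 12 B cell markers, 1 rose and 6 fell (median -0.16), with a summed signal of 338 to 344 with imatinib and 360 to 386 in control. Of 6 neutrophil markers above background on all 4 arrays, 4 rose and 1 fell (median 0.72), with Mmp8 higher by 4.20, S100a8 higher by 3.26 and Ly6g lower. The neutrophil median was 0.34 with the normexp background correction. The 7 tested neutrophil markers had a summed signal of 3.01 to 3.32 with imatinib and 3.28 to 3.53 in control. This sum rests mostly on Ly6g and Elane, with mean log2 signals of 1.31 and -0.32 in control. The brightest of the other neutrophil markers in control was Camp, at -4.49. Kit rose by 1.77 among the mast cell and basophil markers, where Hdc fell, and the summed signal of 4 was 0.161 to 0.177 with imatinib and 0.0916 to 0.0974 in control. Pf4, a platelet marker, rose by 4.35, while Itgb3 fell and Itga2b did not pass. Natural killer cell markers rose in 3 of 5 and fell in 1 (median 0.51). Further listed markers of these cells were not above background on any array. They were Gp9, Ppbp and Gp1ba (platelet) and Fcer1a, Ms4a2, Mcpt4 and Gata2 (mast cell and basophil). Ncr1, Klrb1c and Klrk1 (natural killer cell) and Ngp, Cxcr2 and Mmp9 (neutrophil) were also among them. The part of all these cells in the differences of Hmox1, Mt1, Mt2, Srxn1, Nqo1 and the iron genes, Lcn2 and Slc11a1 included, was not tested. In such bulk samples, fewer cells of a type and less RNA per cell cannot be told apart.

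Across the whole array, 10622 of 25375 tested probes passed, which is 41.9%, with 4905 (19.3%) higher and 5717 (22.5%) lower, against 2802 higher and 11739 lower under spike-in scaling. The 2 imatinib arrays had 25192 and 26762 probes well above background, the 2 control arrays 25336 and 25018, and no spot was saturated. In the plot of all tested probes, Mt1, the brighter Hmox1 probe and Srxn1 lie beyond 98.6% of the probes, Mt2 beyond 97.8%, and the dimmer Hmox1 probe beyond 95.1%. Nfe2l2 lies beyond 88.8%, Txnrd1 and Gclc beyond 80.8% and 78.8%, Gclm beyond 60.5% and Keap1 beyond 46.4%. The groups did not overlap with imatinib higher for 10 of the 11 member probes, as for 35.2% of all tested probes. The 10 include both Hmox1 probes and Gclm, which did not pass. They also include Slc7a11, which was tested only through the imatinib arrays, so the filter favoured this outcome for it. With 4 arrays, precision is limited by their number.

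**Figure D5:**
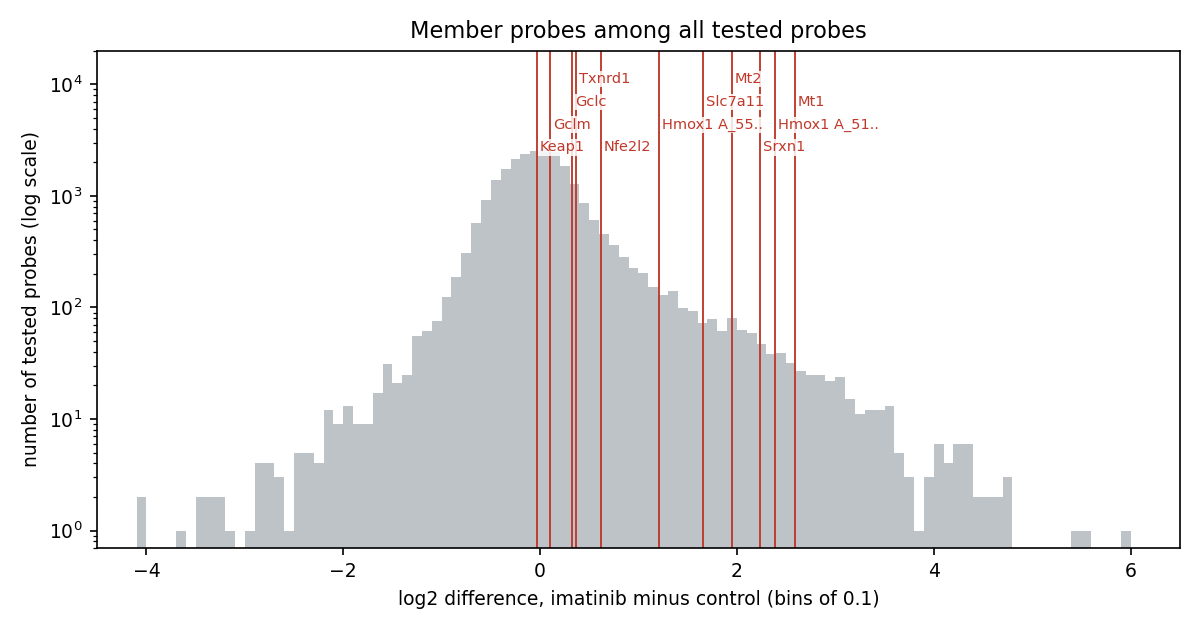
Distribution of the log2 difference, imatinib minus control, over 25375 tested probes (grey, bins of 0.1, log scale of counts), with the 11 member probes as red lines. The Mt1, Srxn1 and brighter Hmox1 probes lie between 2.23 and 2.59, in the upper tail, and Gclm and Keap1 lie at 0.10 and -0.04, near the centre.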

How the data were processed

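RNA of 4 samples of cultured mouse spleen cells, 2 with and 2 without imatinib, was hybridised to Agilent 1-colour arrays (design 026655) on 1 slide, with control at positions 1 and 3 and imatinib at 2 and 4. Per the file headers, Feature Extraction 9.1.3.1 made the spot intensity used here, which is background-subtracted and detrended, and the flags per spot (other). The authors also deposited log2 values, normalised in GeneSpringGX per the labels, which served as an alternative. They equalled log2 of the processed signal minus a constant per array within 0.01 for 99.88% to 99.93% of probes, with medians of -3.99 and -3.92 for imatinib and -4.10 and -4.17 for control.

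Processed signals were put on the log2 scale, averaged over the spots of a probe without outlier spots, and set relative to the 75th percentile of the non-control spots of the array. Testing required both arrays of 1 group, or of both, to be well above background, which 25467 probes met, and 92 of these were left out for a marked value, leaving 25375. The comparison used limma 3.58.1 in R 4.3.3 (lmFit and eBayes on group, two-sided, 2 residual and 2.05 prior degrees of freedom). Benjamini-Hochberg adjustment ran over all tested probes with a threshold of 0.05, and SE are on the log2 scale. In counts of genes the brightest tested probe stood for its gene, and lists were counted over genes above background on all 4 arrays.

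Gene names came from RefSeq (GRCm38.p6) through the accession for 26055 probes, the symbol for 3195 and a synonym for 930, while 9249 have only the array's own name. The text names all members with every probe, up to 4 genes of each list that passed with the largest change, those above background on all 4 arrays first, and Nqo1, Bach1, Mtf1, Slc3a2 and Slc30a1. Slc40a1, Hmox2, Cul3, Dpp3, Pgam5, Gstp1, Akr1b10, Abcc1, Me1, Nnt and the cell type markers named singly were added after their values were seen. Members and lists were chosen with earlier results of these data known.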

Additional observations from a re-analysis of the deposited data

How the results depend on the processing

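Of the 11 member probes, those of Mt1, Mt2, Hmox1 and Srxn1 passed as higher under all 13 alternative settings. Slc7a11 entered the test only through the imatinib arrays and is not counted so. The range of members higher without single arrays, given below, does include Slc7a11. That range is therefore not comparable with the count of members above background on all 4 arrays. Nfe2l2 passed under 12 of 13, Txnrd1 under 7, Gclc under 6, Keap1 under 1 and Gclm under none. The sign of Keap1 turned under quantile normalization (0.045), and without single arrays Keap1 ran from -0.12 to 0.045. Gclm turned to -0.18 under spike-in scaling. Spike-in scaling, which rests on 8 control probes, gave 2802 probes higher and 11739 lower over the array, 1 member lower (Keap1), and 29 list genes higher and 59 lower, against 47 and 27 with all tested genes of the lists counted. Without the filter on dim probes, 2837 probes were higher and 2134 lower, with 29 list genes higher and 9 lower. Without single arrays, 2417 to 4706 probes were higher and 1555 to 4172 lower, 5 to 7 members were higher, and 26 to 40 list genes were higher and 6 to 20 lower. With the replicate number as a block, 3655 probes were higher and 3509 lower and 15 list genes were lower, and Txnrd1 (adjusted p = 0.054), Gclc (0.063), Tkt (0.054) and G6pdx (0.059) no longer passed. Arrays with the same number did not deviate together (correlation -0.069), so the numbers are not shown to pair the arrays. The slide as a block was not run, since all 4 arrays share it. The cause of these shifts was not tested. Signal near background limits the value of Slc7a11.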

Other observations

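Sod3, the extracellular superoxide dismutase, was above background only on the imatinib arrays, with mean log2 signals of -5.38 with imatinib and -8.56 in control. Nfe2, a blood cell relative of NRF2, was above background on the same 2 arrays, with means of -5.42 with imatinib and -6.61 in control. Among the glutathione transferases, Gstm2 rose by 0.70 and Gstp1 fell by 0.44 on their brightest probes, and both belong to families with similar members. These genes were picked after their values were seen.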
